A study of Mus musculus with 12 samples.

Results

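The 8 genes described here encode the enzymes that make serine from a glycolytic intermediate and the enzymes that pass the carbon of serine into the folate pool. They are Phgdh, Psat1 and Psph (serine synthesis), Shmt1 and Shmt2 (serine to glycine), and Mthfd1, Mthfd1l and Mthfd2 (folate-bound one-carbon units). They were chosen by gene name, with no expression value in the rule, but with earlier results of these data known. They are 8 of the 24421 genes in the deposited table. RNA-seq was done on thymocytes sorted from C57BL/6 mouse thymi at E16.5 of gestation, in 12 libraries that form 6 groups of 2. Every group lacked Rag1 and had loxP-flanked Bcl6 alleles, the gene of a transcriptional repressor. Control groups (Rag1KOBcl6fl/flLckCre-) had no Cre recombinase, and KO groups (Rag1KOBcl6fl/flLckCre+) carried Cre under a T lineage Lck promoter, so loss of Bcl6 and presence of Cre cannot be told apart. CD25 cells came from thymi given no stimulus. Thymi cultured with anti-CD3 (1 µg/ml, 2 days) gave the ISP cells, immature cells with CD8 alone, and the DP cells, which also carry CD4. The antibody stands in for the pre-T cell receptor signal that Rag1-deficient cells cannot receive. The comparisons ask how the enzymes differ between these steps of T cell development and whether they differ between genotypes at each step. In every comparison with CD25 cells, developmental step, anti-CD3 treatment and culture cannot be told apart.

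Serine synthesis branches off glycolysis. PHGDH oxidises 3-phosphoglycerate, PSAT1 transfers an amino group to the product, and PSPH removes the phosphate to release serine. Serine hydroxymethyltransferases (SHMT1 in the cytosol, SHMT2 in mitochondria) then split serine into glycine and a one-carbon unit carried by tetrahydrofolate. In mitochondria MTHFD2 oxidises that unit and MTHFD1L releases it as formate, and in the cytosol the trifunctional MTHFD1 takes formate back onto folate, from where it serves the synthesis of purines and thymidylate. The pathway is known for its use by dividing cells, activated T cells among them.

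Values are RPKM (reads scaled to gene length and to library size), as deposited by the authors. Whole reads recovered from the RPKM steps gave library totals from 9627152 to 14190007, and the 8 enzymes had between 205 and 9131 reads each in every library. All 8 passed the filter on low values, and the lowest value of any of them was 4.50 RPKM (Mthfd1l in a DP control library). Nothing in the labels ties the libraries of 1 group to different embryos or cultures, so p-values measure only how these samples vary, and that variation may be technical. The sample labels give E16.5, while the treatment protocol gives E17.5, and the developmental stage label names another population than the title in 5 libraries. Titles and sequencing library names name different cells or genotypes for 6 of the 8 anti-CD3 libraries. Groups follow the titles, and Cd4 was between 13.9 and 20.5 RPKM in the libraries titled ISP and between 190.6 and 344.1 RPKM in those titled DP. The library names call every library titled ISP wild type and every library titled DP KO, so no comparison of genotypes within ISP or within DP could be made from libraries whose genotype is the same in both labels. Bcl6 was called higher in the libraries labelled KO than in control libraries in ISP (log2 difference 0.84, limma adjusted p = 0.0249) and DP (0.47, 0.0319) and was not called in CD25 (0.09, 0.919), and a whole-gene value says nothing of the loxP-flanked exons. In sorted bulk RNA, fewer cells of a type and less RNA per cell cannot be told apart.

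The DNA just before the start of 3 members is shown because these genes had the lowest DP level relative to ISP. Each line gives the 250 bases before the start annotated by RefSeq on GRCm38.p6, 5′ to 3′ on the gene's own strand, and capitals mark motif matches. The Shmt1 window is chr11:60811266-60811515 (minus strand), where GENCODE M21 places the end of an exon of a noncoding Shmt1 transcript. The Shmt2 window is chr10:127522445-127522694 (minus strand), outside annotated genes. The Mthfd1 window is chr12:76254982-76255231 (plus strand), within an exon of Gm47525, a noncoding RNA on the opposite strand.
Shmt1: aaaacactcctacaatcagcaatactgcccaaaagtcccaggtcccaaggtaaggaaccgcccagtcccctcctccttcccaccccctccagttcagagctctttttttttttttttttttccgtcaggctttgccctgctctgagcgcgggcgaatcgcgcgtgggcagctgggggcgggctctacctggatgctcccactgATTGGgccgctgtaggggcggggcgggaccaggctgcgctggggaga
Shmt2: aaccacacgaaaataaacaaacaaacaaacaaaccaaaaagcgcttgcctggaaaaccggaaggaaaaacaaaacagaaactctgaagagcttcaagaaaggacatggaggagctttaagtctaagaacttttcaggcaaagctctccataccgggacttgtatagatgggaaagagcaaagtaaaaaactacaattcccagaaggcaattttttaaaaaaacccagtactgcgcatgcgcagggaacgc
Mthfd1: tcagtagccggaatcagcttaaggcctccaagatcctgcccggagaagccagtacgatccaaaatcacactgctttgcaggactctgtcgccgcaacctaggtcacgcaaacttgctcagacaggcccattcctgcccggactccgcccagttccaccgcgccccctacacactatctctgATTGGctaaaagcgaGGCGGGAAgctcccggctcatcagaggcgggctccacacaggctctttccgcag
The search covered both strands of 9 windows for the 8 members and of 27025 promoter windows of the same length. TGATGNAA, the core of the C/EBP-ATF response element bound by ATF4, was in none of the members' windows and in 3.53% of all. CACGTG, the E-box bound by MYC, was also in none and in 6.05% of all. CCAAT, read here as ATTGG on the shown strand, was in a window of 6 of 8 members against 34.5% of all, among them Shmt1 at position -47 and Mthfd1 at position -69 relative to the start. A member counted if any of its windows matched, whereas the 27025 windows held only the first listed start of each gene. Psat1, with windows at different starts, had CCAAT in chr19:15925060-15925309 and not in chr19:15924623-15924872. GGCGGGAA, an E2F site, was in the window of Mthfd1 alone among the members, at position -54, and in 1.88% of all. No motif overlapped another, and CCAAT and GGCGGGAA were chosen after the sequences were seen. A match is a run of letters, not a bound site, and the absence of a match concerns these windows only.

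The genes of serine synthesis were each high in ISP cells, but their order between CD25 and DP cells differed. Phgdh (chr3:98313170-98339990, minus strand, GRCm38) was at 157.8 and 191.9 RPKM in control and 167.1 and 159.1 in KO libraries of CD25 cells, at 182.9 and 197.2 (control) and 198.5 and 184.4 (KO) in ISP cells, and at 45.5 and 48.4 (control) and 69.2 and 70.3 (KO) in DP cells. CD25 and ISP libraries thus overlapped for Phgdh, and all DP libraries were lower, with the KO above the control. Psat1 (chr19:15904678-15947337, minus strand) was at 57.9 and 60.5 RPKM in control and 54.8 and 59.0 in KO libraries of CD25 cells, at 125.6 and 126.6 (control) and 127.0 and 115.8 (KO) in ISP cells, and at 29.0 and 27.1 (control) and 38.4 and 40.4 (KO) in DP cells. Its ISP libraries stood above its CD25 libraries and these above its DP libraries, with no overlap. Psph (chr5:129765558-129787449, minus strand) was at 23.9 and 29.6 RPKM in control and 25.7 and 25.1 in KO libraries of CD25 cells, at 60.4 and 64.2 (control) and 66.9 and 58.7 (KO) in ISP cells, and at 40.5 and 43.4 (control) and 52.7 and 46.4 (KO) in DP cells. Psph was the only member whose DP libraries all lay above its CD25 libraries. Exons of Cct6a, a chaperonin gene on the opposite strand, cover 452 of the 4329 exon bases of Psph (10.4%), and whether the authors' counting used strand is not given in the sources used here. Cct6a itself averaged 332 and 319 RPKM in CD25 control and KO, 316 and 325 in ISP, and 118 and 156 in DP, an order unlike that of Psph, and its part in the Psph values was not tested.

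Both serine hydroxymethyltransferase genes were highest in ISP cells and lowest in DP control cells. Cytosolic Shmt1 (chr11:60788104-60811718, minus strand) was at 58.2 and 62.4 RPKM in control and 52.9 and 57.5 in KO libraries of CD25 cells, at 84.7 and 88.4 (control) and 87.3 and 91.7 (KO) in ISP cells, and at 11.7 and 11.1 (control) and 19.5 and 19.4 (KO) in DP cells. Mitochondrial Shmt2 (chr10:127517123-127522444, minus strand) was at 112.4 and 129.3 RPKM in control and 117.5 and 118.8 in KO libraries of CD25 cells, at 273.2 and 286.9 (control) and 301.9 and 262.3 (KO) in ISP cells, and at 48.6 and 40.7 (control) and 82.1 and 72.9 (KO) in DP cells. For both genes the 3 populations did not overlap, and within DP the KO libraries lay above the control libraries. Exons on the opposite strand cover 4.7% of the exon bases of Shmt1 (Smcr8, at most 6.10 RPKM in any library) and 1.0% of those of Shmt2 (Ndufa4l2, at most 0.0889 RPKM).

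Among the folate enzymes, the mitochondrial members rose in ISP cells while the cytosolic one did not differ beyond the test's threshold from CD25 to ISP. Cytosolic Mthfd1 (chr12:76255298-76319803, plus strand) was at 66.7 and 73.2 RPKM in control and 70.1 and 69.3 in KO libraries of CD25 cells, at 76.1 and 74.4 (control) and 75.1 and 77.5 (KO) in ISP cells, and at 13.97 and 12.93 (control) and 18.8 and 22.2 (KO) in DP cells. Mitochondrial Mthfd2 (chr6:83305691-83325908, minus strand) was at 41.3 and 44.2 RPKM in control and 41.6 and 40.7 in KO libraries of CD25 cells, at 90.1 and 92.6 (control) and 91.3 and 75.9 (KO) in ISP cells, and at 24.3 and 25.1 (control) and 38.00 and 31.45 (KO) in DP cells. Mitochondrial Mthfd1l (chr10:3973118-4167081, plus strand), the lowest of the 8 in every population, was at 11.2 and 14.4 RPKM in control and 13.4 and 10.2 in KO libraries of CD25 cells, at 20.2 and 20.4 (control) and 20.7 and 19.2 (KO) in ISP cells, and at 4.50 and 5.01 (control) and 6.63 and 6.89 (KO) in DP cells. The DP libraries of all 3 genes lay below every CD25 and ISP library.

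**Figure D1:**
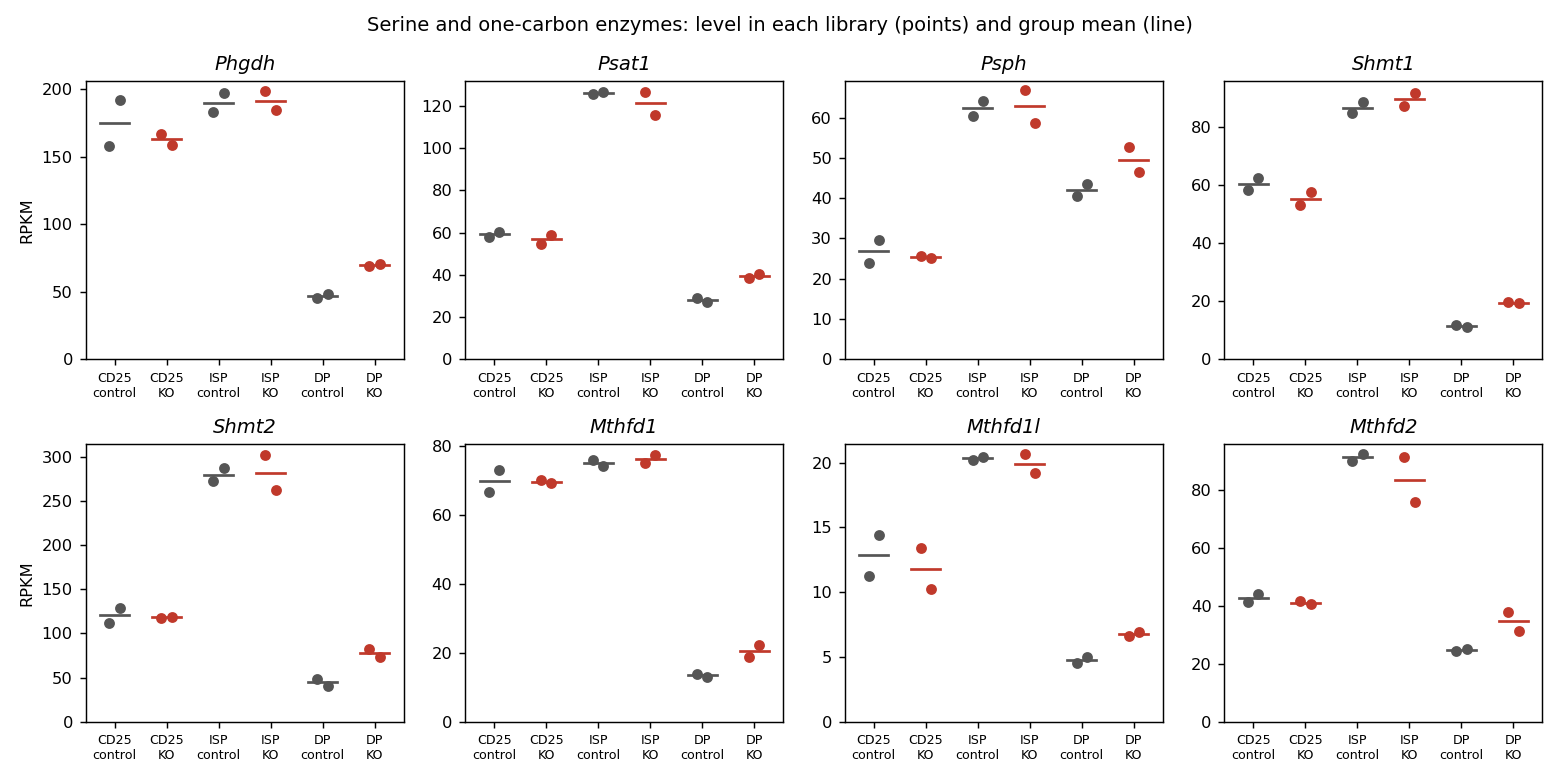
RPKM of each enzyme (linear axis from 0) in the 12 libraries; points are libraries, lines are means of 2, grey is control and red is KO. Group means are highest in ISP for all 8 enzymes and lowest in DP for all but Psph, and DP KO points lie above DP control points in every panel.

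Levels per length can be ordered across genes. In CD25 cells Phgdh was highest (169 ± 15.8 RPKM, SD, n = 4), followed by Shmt2 (119 ± 7.11), and Psat1 and Shmt1 overlapped in the middle of the order (58.0 ± 2.42 and 57.7 ± 3.88). In ISP cells Shmt2 took the highest place (281 ± 17.1 RPKM), above Phgdh (191 ± 8.24), and the range of Mthfd2 overlapped those of Shmt1 and Mthfd1. In DP control cells the range of Shmt2 overlapped those of Phgdh and Psph at the head of the order, and Shmt1 came next to last. The 8 values summed to between 529 and 606 RPKM in CD25, 886 and 969 in ISP, 213.8 and 218.1 in DP control, and 309.9 and 325.4 in DP KO libraries.

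From CD25 to ISP, 7 of the 8 enzymes were higher and none was lower at a Benjamini-Hochberg adjusted p under 0.05 in limma (called, in what follows), where 33.1% of the 11288 genes tested were called higher and 30.9% lower. Differences are in log2(RPKM + 1), with SE. Psph rose by 1.23 ± 0.072 (2.40-fold in mean RPKM, adjusted p = 2.55e-08), Shmt2 by 1.23 ± 0.070 (2.35-fold, 2.18e-08), Psat1 by 1.08 ± 0.047 (2.13-fold, 2.38e-09) and Mthfd2 by 1.04 ± 0.068 (2.09-fold, 7.47e-08). Smaller rises were those of Mthfd1l (0.68 ± 0.092, limma adjusted p = 4.39e-05), Shmt1 (0.60 ± 0.047, 3.7e-07) and Phgdh (0.18 ± 0.060, 0.0204). The difference in Mthfd1 was 0.12 (95% interval -0.01 to 0.24, limma adjusted p = 0.0862). The median over the members was 0.86, against 0.01 over all genes tested. Rescaling to equal totals moved the share of called genes that were higher from 51.7% to 37.8%. The Phgdh call was lost without CD25 control 1, CD25 KO 2, ISP control 2 or ISP KO 1 (0.11 to 0.16), and its difference was 0.06 after rescaling to equal totals and -0.02 after quantile normalisation. Mthfd1 was called, at 0.12 to 0.15, without CD25 control 2, DP KO 1 or DP KO 2, and with voom on the recovered reads (0.12, adjusted p = 0.037), and was at -0.01 after quantile normalisation. Grouped by library name, 1 enzyme was called higher and 3 lower. As with the DP comparison below, that grouping mixes libraries high and low in Cd4.

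From ISP to DP, all 8 enzymes were lower, where 35% of the genes tested were called lower and 35.6% higher. Shmt1 fell by 2.48 ± 0.047 on the log2 scale (5.70-fold lower mean RPKM, limma adjusted p = 1.33e-11), Shmt2 by 2.24 ± 0.070 (4.60-fold, 2.08e-10) and Mthfd1 by 2.13 ± 0.056 (4.47-fold, 6.52e-11). Of the genes tested, 0.505% had a larger difference in size than Shmt1, 0.850% than Shmt2 and 0.974% than Mthfd1. Psat1 fell by 1.86 ± 0.047 (3.67-fold, 6.15e-11), Phgdh by 1.72 ± 0.060 (3.27-fold, 3.77e-10), Mthfd1l by 1.66 ± 0.092 (3.50-fold, 1.13e-08) and Mthfd2 by 1.55 ± 0.068 (2.95-fold, limma adjusted p = 1.73e-09). Psph, the last step of serine synthesis, fell by only 0.45 ± 0.072 (1.37-fold, limma adjusted p = 1.22e-04), and 41.5% of genes differed by more. The members' median was -1.79, against 0.01 over all genes tested. Rescaling to equal totals moved the median of all genes to 0.16 and left the members' median 1.77 below it, against 1.80 below it as deposited. That rescaling also moved the share of called genes that were higher from 50.4% to 63.9%. In the 4 anti-CD3 libraries whose population is the same in both labels, all 8 were lower. That fit had no replicate in any ISP or DP group, so its spread came from CD25 libraries alone. By library name its ISP libraries were all control and its DP libraries all KO, so population and that genotype cannot be told apart. Grouping all libraries by library name called none and put Psat1, Psph, Shmt2 and Mthfd2 at 0.03 to 0.14.

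From CD25 to DP, across both steps, 7 enzymes were lower and Psph was higher, where 38.4% of genes were called lower and 37.3% higher. Mthfd1 fell by 2.01 (4.11-fold, limma adjusted p = 1.63e-11), the largest fall of the 8, and Mthfd2 fell by 0.51 (1.41-fold, 2.33e-05), the smallest. Psph rose by 0.79 ± 0.072 (1.76-fold, 6.57e-07). Titles and library names give the same split between stimulated (8 libraries) and CD25 (4 libraries). Across it, Psph (1.01), Mthfd2 (0.27) and Psat1 (0.15) were higher, Mthfd1 (-0.95), Phgdh (-0.68) and Shmt1 (-0.64) were lower, and Shmt2 (0.11) and Mthfd1l (-0.15) were not called, where 35.6% of genes were called higher and 36.5% lower. Mthfd1l was called lower without CD25 control 1 or CD25 KO 2 (-0.24 and -0.25), and Shmt2 higher without DP control 2 (0.14). Mthfd1l was also called lower with equal totals (-0.19, limma adjusted p = 0.0495), and the Psat1 call was lost with quantile normalisation (0.066, 0.139). These comparisons share libraries with those above and are no separate evidence.

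Ratios between members that act in parallel or in sequence changed at each step. The pairs were chosen after the values were seen, so the tests describe these libraries. Shmt2 over Shmt1, mitochondrial over cytosolic, was between 1.93 and 2.22 in the CD25 libraries (geometric mean 2.07), 2.86 and 3.46 in ISP (3.19), and 3.67 and 4.21 in DP (3.94). Mthfd2 over Mthfd1 was between 0.587 and 0.619 in CD25 (0.601), 0.979 and 1.24 in ISP (1.15), and 1.42 and 2.02 in DP (1.76). Psph over Phgdh, the last step of serine synthesis over the first, was between 0.152 and 0.158 in CD25 (0.154), 0.318 and 0.337 in ISP (0.328), and 0.660 and 0.896 in DP (0.796). No ratio overlapped between any of the 3 populations. Each of the 9 comparisons gave p = 0.0286 in an exact two-sided permutation test of 4 against 4 libraries, the smallest value that test allows, and 0.0286 after Benjamini-Hochberg adjustment over the 9. Each set of 4 pooled control and KO libraries. The comparisons of a ratio share libraries, so the 9 values are not separate evidence. With 1 library left out, 3 against 4, the exact permutation test cannot go below p = 0.0571. By library name the ISP to DP comparisons of the 3 ratios gave p = 0.314, 0.629 and 0.714 in the same exact permutation test.

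**Figure D2:**
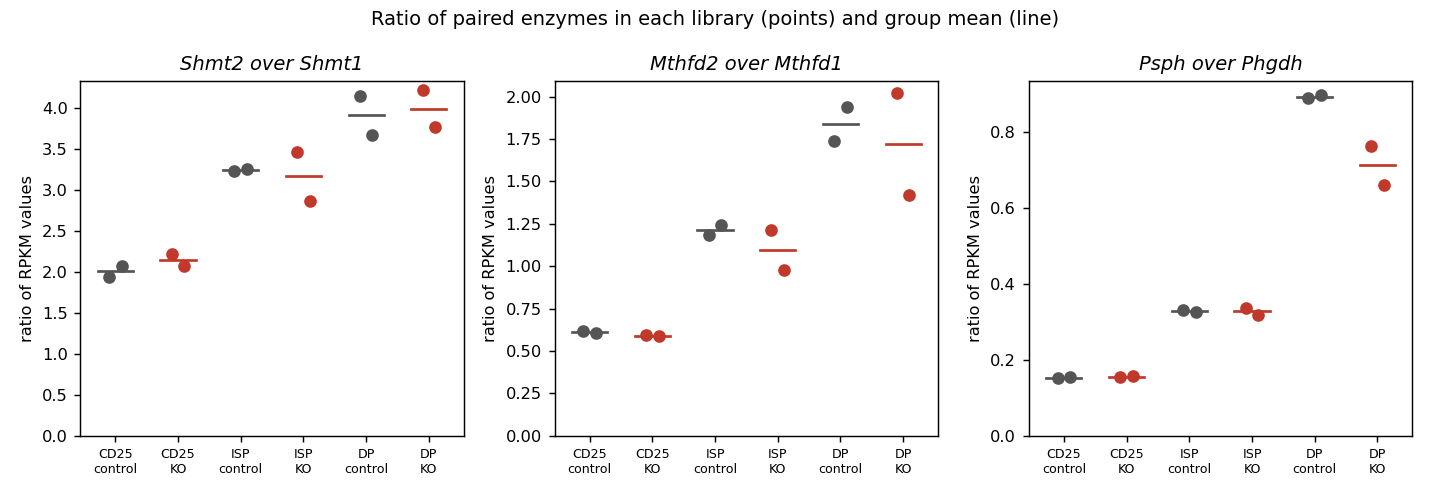
Ratio of RPKM values (linear axes from 0) for 3 pairs of enzymes in each of 12 libraries; points are libraries, lines are means of 2, grey is control and red is KO. All 3 ratios are lowest in CD25 and highest in DP, and Psph over Phgdh in DP KO (0.660 and 0.762) lies below DP control (0.889 and 0.896).

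Psph also stood apart from the other enzymes across libraries. As a description over the 12 libraries, which fall into 3 populations, Pearson's r of log2(RPKM + 1) between Psph and another member ran from -0.0844 (with Mthfd1) to 0.549 (with Mthfd2). Among the other 7 members it ran from 0.777 (Mthfd1 and Mthfd2) to 0.994 (Psat1 and Shmt2, and Phgdh and Mthfd1). Of 7851 other genes searched, the one nearest to Phgdh was Ppie (r = 0.998), a peptidyl-prolyl isomerase gene, with Tkt, the transketolase gene of the pentose phosphate pathway, second (0.997). Nearest to Shmt1 was Vars (0.997), a valyl-tRNA synthetase gene, and nearest to Mthfd1 was Gpatch4 (0.997), followed by Gnl3 and Nolc1, genes of nucleolar proteins. Pola2, which encodes a subunit of the DNA polymerase alpha-primase complex, was nearest to Psat1 (0.994) and among the 3 nearest to Shmt2 and Mthfd2. Aars, an alanyl-tRNA synthetase gene, was nearest to Mthfd2 (0.993), Eif3g, a translation initiation factor gene, to Mthfd1l (0.994), and Pgp, a phosphatase gene, to Psph (0.987). Nearest to Shmt2 was Tyrobp (0.993), a signalling adaptor of NK and myeloid cells.

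No enzyme was called between genotypes in CD25 or ISP cells, none had an unadjusted p under 0.05 there, and voom on the recovered reads also called 0. In CD25 cells the KO minus control differences ran from -0.13 (Shmt1) to -0.00 (Mthfd1), with limma adjusted p-values from 0.665 to 0.995, where 0.00941% of 10622 genes were called higher and 0.00941% lower. The widest 95% interval was that of Mthfd1l, -0.47 to 0.24, and the intervals of the other 7 lay between -0.31 and 0.18. In ISP cells the differences ran from -0.13 (Mthfd2) to 0.05 (Shmt1), with limma adjusted p-values from 0.608 to 0.988, where 0.257% of genes were called higher and 0.0974% lower. All intervals in ISP lay between -0.34 and 0.26. These intervals show the spread of each estimate and are not limits of detection. With 2 libraries per genotype, differences as large as their ends could still go uncalled after adjustment.

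In DP cells 7 of the 8 enzymes were higher in KO than in control libraries, where 14.1% of genes were called higher and 7.78% lower. Shmt2, at 77.5 ± 6.50 RPKM in KO and 44.7 ± 5.58 in control (SD, n = 2 each), rose by 0.78 ± 0.099 on the log2 scale (1.73-fold, limma adjusted p = 5.08e-04), and Shmt1, at 19.5 ± 0.0723 against 11.4 ± 0.445, by 0.72 ± 0.067 (1.70-fold, 1.36e-04). Mthfd1 rose by 0.57 ± 0.080 (1.52-fold, 8.61e-04), Phgdh by 0.56 ± 0.084 (1.48-fold, 0.00129), Psat1 by 0.48 ± 0.067 (1.40-fold, 8.99e-04) and Mthfd2 by 0.47 ± 0.096 (1.41-fold, limma adjusted p = 0.00608). Mthfd1l rose by 0.43 ± 0.130 (1.42-fold, limma adjusted p = 0.0341), a call lost without any 1 of the 4 DP libraries (0.37 to 0.50). Psph differed by 0.23 (95% interval 0.01 to 0.45, limma adjusted p = 0.121). Both KO libraries lay above both control libraries for all 8 members, as they did for 32.0% of the genes tested. Rescaling to equal totals, which moved the share of called genes that were higher from 64.5% to 35.01%, left the members' median 0.50 above that of all genes, against 0.52 as deposited. These values rest on the titles: grouped by library name, all 8 enzymes were lower in KO.

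**Figure D3:**
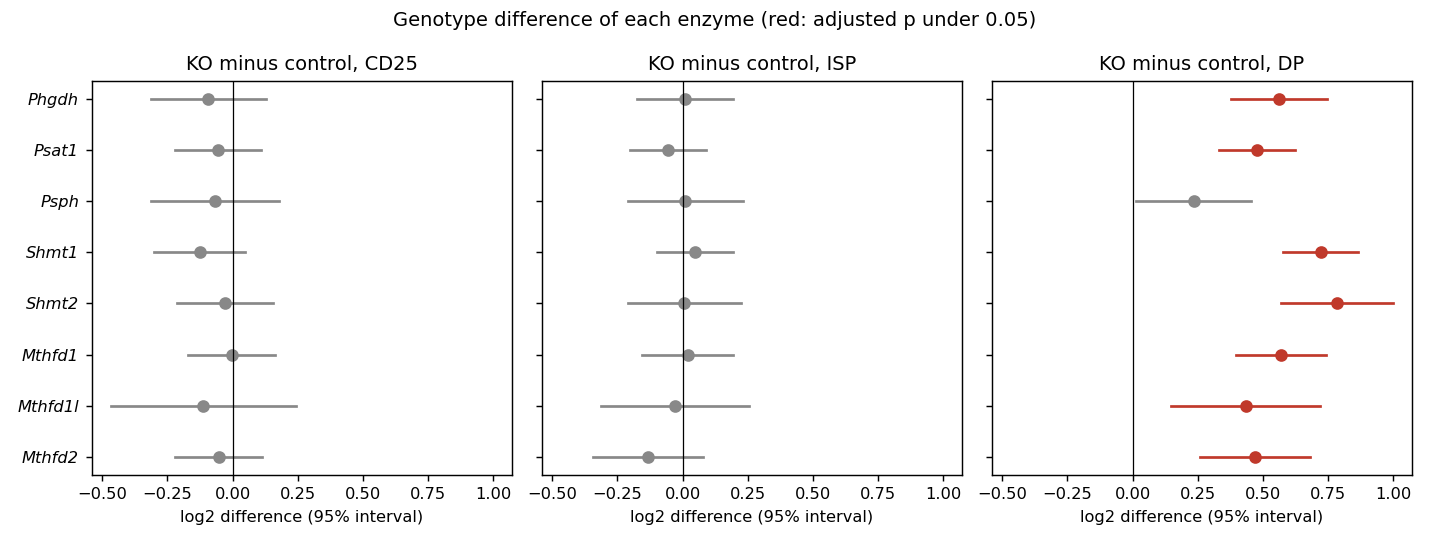
KO minus control difference of each enzyme in log2(RPKM + 1), with 95% intervals from limma, in CD25 (4 libraries), ISP and DP (12 library fit); red marks an adjusted p under 0.05. Intervals in CD25 and ISP include 0 for all 8, and those in DP lie above 0 for all 8, with Psph not called.

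The DP level therefore lay nearer to the ISP level in KO than in control. In control libraries DP was lower than ISP for all 8 (31.4% of genes called higher and 32.4% lower), by 7.58-fold for Shmt1, 6.27-fold for Shmt2, 5.60-fold for Mthfd1, 4.50-fold for Psat1, 4.28-fold for Mthfd1l, 4.05-fold for Phgdh, 3.70-fold for Mthfd2 and 1.48-fold for Psph. In KO libraries all 8 were also lower (27.8% of genes called higher and 28% lower), by 4.60-fold for Shmt1, 3.64-fold for Shmt2, 3.72-fold for Mthfd1, 3.08-fold for Psat1, 2.95-fold for Mthfd1l, 2.75-fold for Phgdh, 2.41-fold for Mthfd2 and 1.27-fold for Psph. The Psph call in KO (-0.33, limma adjusted p = 0.014) was lost with equal totals (-0.22, 0.0848). It was also lost without ISP KO 1 (-0.24) or DP KO 2 (-0.24), and in the libraries whose population is the same in both labels (-0.15). Those libraries leave no replicate in ISP KO or DP KO. The genotype difference in DP exceeded that in ISP for 6 of 8 members, where 3.68% of genes were called higher and 0.523% lower. Rescaling to equal totals moved the share of called genes that were higher from 87.6% to 66.1% here, from 49.2% to 64.96% in DP minus ISP of control libraries, and from 49.8% to 61.3% of KO libraries. Shmt2 had the largest such value (0.78 ± 0.140, limma adjusted p = 0.0141) and Shmt1 the smallest p (0.67 ± 0.094, 0.0081). Psph (0.22, limma adjusted p = 0.399) and Mthfd1l (0.46, 0.173) were not called. The number of members called fell to 1 without ISP control 2, ISP KO 2 or DP control 2, and to 3 without DP control 1, and Shmt1 was the member called in each of those fits.

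Other genes of the pathway came from lists chosen with earlier results of these data known, and their counts are descriptions. The lists were not tested against each other or against other genes. From CD25 to ISP, where 33.1% of all genes tested were called higher and 30.9% lower, folate and purine genes were called in both directions. Of 15 folate cycle and transport genes tested, 6 were higher and 3 lower (median -0.03), with Tyms, thymidylate synthase, at 0.83 among the higher, and Aldh1l1, which oxidises formyl-tetrahydrofolate, at -1.02 among the lower. Of 13 purine synthesis genes 4 were higher and 3 lower (median -0.03). Of 13 genes of serine transport and use 6 were higher and 3 lower, led by Sars, the seryl-tRNA synthetase gene (0.78), and the neutral amino acid transporter genes Slc1a4 (1.39) and Slc1a5 (0.61). Of 19 genes of the ATF4 response, the amino acid stress programme to which serine synthesis genes also belong, 18 were higher and none lower (median 0.72), with Asns, asparagine synthetase, at 69.6 against 12.4 RPKM (2.39). Of 24 S phase genes 22 were higher and none lower (median 0.76), among them Ccne1, cyclin E1 (1.68), and Rrm2, a ribonucleotide reductase subunit (1.63).

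From ISP to DP, where 35% of all genes tested were called lower and 35.6% higher, more genes were called lower than higher in each of these lists except serine transport and use. Of the purine synthesis genes 11 of 13 were lower and 2 higher (median -1.12), with Gart, a trifunctional enzyme that uses formyl-tetrahydrofolate, at 27.2 against 85.7 RPKM (-1.64). Of the folate genes 9 of 15 were lower and 2 higher, with the folate carrier gene Slc19a1 at -1.31 and Fpgs, which adds glutamate to folates, at -1.11. Of 8 genes of the methionine cycle and transsulfuration 6 were lower and 1 higher, with Srm, spermidine synthase, at 26.3 against 193.2 RPKM (-2.89). Both glycine cleavage genes tested were lower, Gcsh at -2.27 and Dld, which other complexes share, at -0.27. The ATF4 response had 15 of 19 lower and 3 higher, and S phase 24 of 24 lower (median -0.92). Of the 13 genes of serine transport and use 5 were lower and 6 higher (median 0.01).

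Between genotypes in DP cells 14.1% of all genes tested were called higher in KO and 7.78% lower. All 24 S phase genes were higher in KO than in control (median 0.48, from 0.25 to 0.78), with Pcna, the replication clamp, at 334.1 against 215.6 RPKM (0.63). Of 13 purine synthesis genes 8 were higher, among them Gart (0.42), Prps1 (0.46) and Impdh2 (0.35), and 1, Impdh1, was lower (-0.33). Of 15 folate genes 2 were higher, with Tyms at 0.66, and 1, Mthfs, which salvages formyl-tetrahydrofolate, was lower (-0.50). Of the ATF4 response 3 of 19 were higher, Cebpb (1.17), Slc7a5 (0.42) and Gars (0.24), and Atf4 itself was not called (0.20, limma adjusted p = 0.066). Srm (0.82), Mtap (0.45) and Ahcy (0.42) were higher among 8 genes of the methionine cycle, and Gcsh was higher (0.54). Of 13 genes of serine transport and use 2 were higher, Sfxn1, the mitochondrial serine transporter gene (0.30), and Serinc3 (0.30), and 1, Sfxn3, was lower (-0.39). In CD25 and in ISP no gene of these pathway lists was called between genotypes, and the difference between the DP and ISP genotype effects was called higher for 21 of 24 S phase genes. Of the other pathway lists genes called higher included Tyms (0.72), Srm (0.63), Gart (0.40) and Cebpb (1.01), and Impdh1 was called lower (-0.39).

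**Figure D4:**
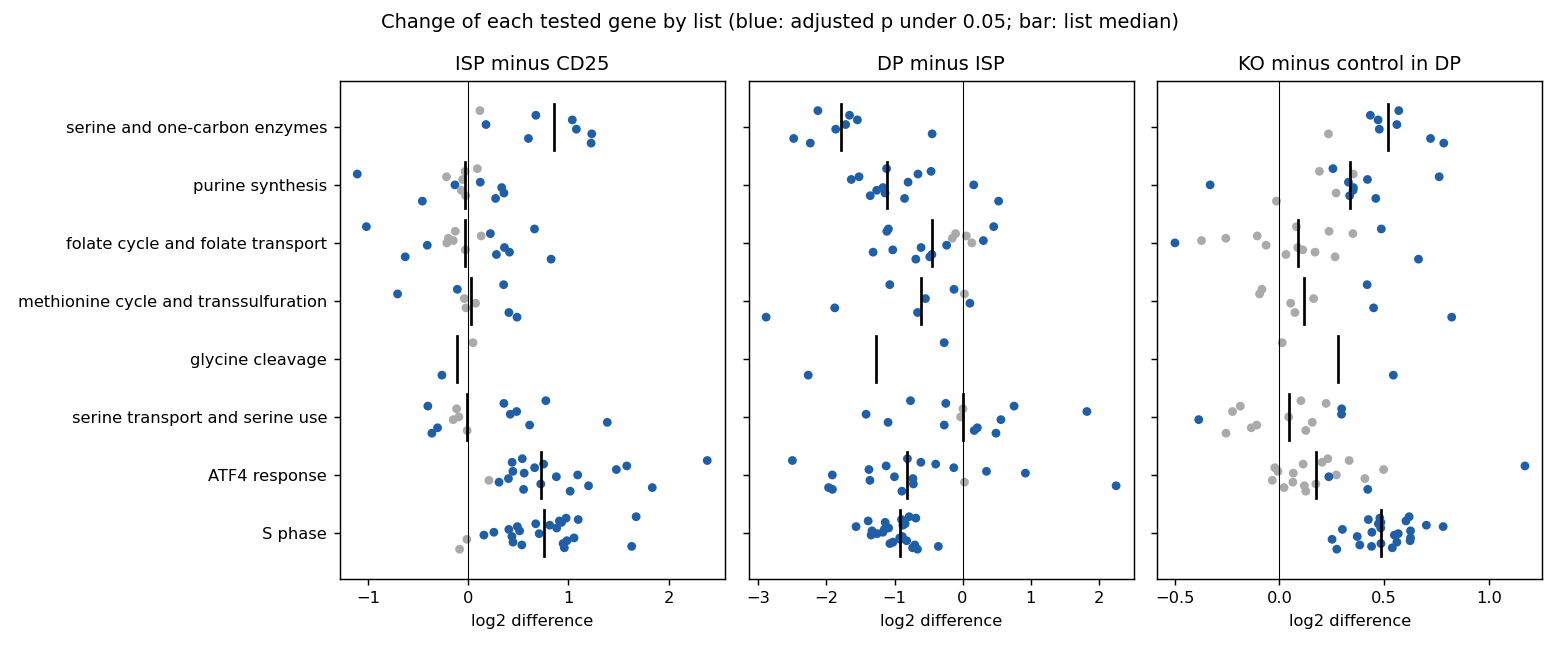
Log2 difference of each tested gene (points) by list in 3 comparisons, with the list median as a bar; blue marks a limma adjusted p under 0.05. In ISP minus CD25 the medians are 0.86 for the enzymes, 0.72 for the ATF4 response and 0.76 for S phase, and in KO minus control in DP all 24 S phase genes and 7 of the 8 enzymes are blue and right of 0.

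Several other measures also differed between groups, some in the order of the enzymes and some in another, and their part in the results was not tested. Summed S phase RPKM was 2798 to 2966 in CD25, 4572 to 4885 in ISP, 2151 to 2183 in DP control and 2886 to 3217 in DP KO libraries. Summed RPKM of 8 NK and innate lymphoid markers was 591 to 780 in CD25, 1034 to 1251 in ISP, 112 to 126 in DP control and 177 to 217 in DP KO. Of the 7 of these markers tested, Tyrobp (1.30) and Gzma (0.74) were higher in DP KO and 5 were not called (median -0.04). Ncr1, an NK receptor gene, was at most 0.84 RPKM in any DP library. Summed RPKM of 12 myeloid markers was 35.3 to 72.7 in CD25, 17.5 to 17.7 in ISP control, 50.7 to 68.3 in ISP KO, 14.1 to 20.9 in DP control and 71.8 to 81.0 in DP KO. Of 9 tested myeloid markers 4 were higher in DP KO, led by Lyz2 (54.5 against 9.26 RPKM), and 5 were not called. Mpo, chosen after its values were seen, was at most 0.13 RPKM in the DP libraries. In ISP the myeloid sum was also higher in KO than in control, and 1 of 9 tested myeloid markers was called higher. Thymic epithelium markers summed to 116 to 128 RPKM in CD25 and 21.4 to 24.0 in ISP, and mast cell markers to 35.4 to 40.3 in CD25 and 13.6 to 35.8 in ISP. Mast cell, erythroid and thymic epithelium marker sums in DP were 2.95 to 3.36, 15.3 to 16.2 and 21.8 to 22.0 RPKM in control and 1.51 to 3.92, 15.7 to 19.2 and 27.8 to 28.2 RPKM in KO. The mast cell genes Mcpt1 and Mcpt2 and the globin genes were at 0 in all DP libraries. Low values of these single genes, of Ncr1 or of Mpo do not show that a cell type was absent. Long nuclear RNAs, often read as a sign of RNA quality, summed to 132 to 243 RPKM in CD25, 68.3 to 93.1 in ISP, 238 to 284 in DP control and 162 to 250 in DP KO. Of 4 tested, 3 were called higher from ISP to DP. Between genotypes in DP 1 of 4, Neat1, was lower in KO (-0.65), and the 3 others were not called, with differences up to 1.98. None was called between genotypes in CD25 (-0.35 to 0.06) or in ISP (-0.49 to 1.84). Among the population markers Cd4 (220 against 341 RPKM) and Il2ra (17.8 against 28.6 RPKM) were lower in DP KO.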

How the data were processed

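RNA-seq was done on 12 libraries of sorted thymocytes, with RNA from a PicoPure kit and standard Illumina libraries per the labels' protocols. The authors deposited a table of RPKM values per gene. BWA and the GRCm38 build are named in the submitters' processing notes; for the counter, annotation, versions, strand use and filters nothing is given in the sources used here. Of the genes above 0 in any library, all 17090 (100%) came out as whole reads within 0.02 reads, and implied denominators ran from 9508841 to 14356391. Of the deposited names, 27 had the form of dates and were not used.

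Differences were tested on log2(RPKM + 1), a scale that understates changes of low genes, by limma 3.58.1 (R 4.3.3, trended variance) after a filter of 1 RPKM or more in 2 or more libraries. The CD25 genotype comparison used its 4 libraries (2 residual degrees of freedom) and all others the 12 libraries in 6 groups (11288 genes, 6 residual degrees of freedom). P-values were Benjamini-Hochberg adjusted over all genes tested and called under 0.05, and the procedure was tested on simulated data. Ratios used exact permutation tests (scipy 1.17.1, Python 3.11.15, pandas 2.3.3, numpy 2.4.6, matplotlib 3.10.9).

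Groups follow titles. The enzymes and gene lists were chosen with earlier results of these data known. Named genes are the 8 enzymes in every comparison, per comparison up to 4 genes of each list with the smallest p, the 3 genes of at least 5 RPKM on average most correlated with each enzyme, and label checks. Atf4, Mpo, Mcpt1, Mcpt2, Cct6a, Smcr8 and Ndufa4l2 fall outside that rule and were chosen after their values were seen. The values of 1 gene of the folate list are not reported here. Positions are from GENCODE M21 (GRCm38) and promoter sequences from RefSeq (GRCm38.p6; 8 of 8 enzymes matched). Alternatives were other pseudocounts, filters and scalings, a replicate block, each library left out, smaller fits, groups by library name and, added after the data were seen, voom on recovered reads.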

Additional observations from a re-analysis of the deposited data

Results flagged for a closer look

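For 6 enzymes the difference between KO and control libraries was larger in DP than in ISP cells by a test of that difference itself (limma, 12 libraries, Benjamini-Hochberg adjusted p under 0.05). Of all genes tested, 3.68% were called higher and 0.523% lower in that test. In log2(RPKM + 1) the excess in DP was 0.55 for Phgdh (adjusted p = 0.027), 0.53 for Psat1 (0.0135), 0.67 for Shmt1 (0.0081), 0.78 for Shmt2 (0.0141), 0.55 for Mthfd1 (0.0216) and 0.60 for Mthfd2 (limma adjusted p = 0.0331). In DP both KO libraries lay above both control libraries for each of the 6, as they did for 32.0% of the genes tested. In ISP the genotypes overlapped for each of the 6. Among the genes tested, both KO libraries lay above both control libraries in ISP for 21.1% and below for 24.1%. The Shmt1 call was kept in every fit that left out 1 library, and the other 5 calls were each lost in at least 3 of those fits, with the sign kept. With equal totals the Phgdh (0.44, limma adjusted p = 0.056) and Mthfd2 (0.49, 0.0843) calls were lost. With 2 libraries per group, a single library that stands apart from its group could not be looked for.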

How the results depend on the processing

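Grouped by title, all 152 values of DP minus ISP, of DP minus CD25 and of DP minus ISP in control kept direction and call under every alternative. KO minus control in DP kept 153 of 160, and the 7 lost calls were all of Mthfd1l. Genes called between genotypes in CD25 went from 2 to 1 (pseudocount 0.1, no filter, or quantile normalisation), 9 (all 12 libraries) and 14 (voom), and in ISP from 40 to 8 (no filter), 67 (at least 5 RPKM) and 181 (voom). Genes called for the difference between DP and ISP genotype effects went from 474 to 185 (no filter), 295 (equal totals) and 304 (quantile), and members from 6 to 2 (no filter, where more genes are tested) and 4 (equal totals). Leaving out 1 library gave 64 to 1051 genes and 1 to 6 members for that difference, 4 to 93 genes in CD25, 6 to 56 in ISP and 844 to 2601 (DP KO 1 left out) in DP, with 1106 and 1176 without DP control 1 and 2 and 844 without DP KO 2.

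Log2 values that turned sign were small by title. With equal totals, KO minus control in CD25 had Shmt2 at 0.0059 and Mthfd1 at 0.031. With quantile normalisation, it had Mthfd1 at 0.0077, ISP minus CD25 had Phgdh at -0.024 and Mthfd1 at -0.011, and anti-CD3 minus CD25 had Shmt2 at -0.011. Over the fits without 1 library, KO minus control in CD25 ran for Phgdh from -0.23 to 0.047, Psph from -0.21 to 0.081, Shmt2 from -0.13 to 0.072, Mthfd1 from -0.071 to 0.063 and Mthfd1l from -0.29 to 0.070, and in ISP for Phgdh from -0.044 to 0.065, Psph from -0.084 to 0.10, Shmt2 from -0.093 to 0.11, Psat1 from -0.12 to 0.0094, Mthfd1 from -0.0022 to 0.042 and Mthfd1l from -0.080 to 0.021.

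Grouped by library name, a grouping that mixes the titled populations, results changed throughout. Called genes numbered 0 in DP minus ISP, 0 in control and 2 in KO libraries, 5495 and 5612 between genotypes in ISP and DP, and 0 for the difference of these. Members called numbered 1 higher and 3 lower in ISP minus CD25, 0 lower in DP minus ISP (also 0 in control and 0 in KO), 3 lower in DP minus CD25, 8 lower between genotypes in ISP, 0 higher and 8 lower in DP, and 0 for the difference. ISP minus CD25 had Phgdh at -0.67, Shmt1 at -0.63, Mthfd1 at -0.93 and Mthfd1l at -0.14. DP minus ISP had Psat1 at 0.035, Psph at 0.046, Shmt2 at 0.14 and Mthfd2 at 0.11, in control Psat1 at 0.060, Psph at 0.050, Shmt2 at 0.066, Mthfd1l at 0.043 and Mthfd2 at 0.11, and in KO Psat1 at 0.0093, Psph at 0.042, Shmt1 at 0.040, Shmt2 at 0.21 and Mthfd2 at 0.11. DP minus CD25 had Psat1 at 0.16, Shmt2 at 0.18 and Mthfd2 at 0.32. KO minus control had Phgdh at -1.69, Psph at -0.44, Shmt1 at -2.53, Shmt2 at -2.31 and Mthfd1 at -2.10 in ISP, and Phgdh at -1.74, Psat1 at -1.89, Psph at -0.45, Shmt1 at -2.43, Shmt2 at -2.17, Mthfd1 at -2.15, Mthfd1l at -1.73 and Mthfd2 at -1.55 in DP. The difference of genotype effects had Phgdh at -0.053, Psat1 at -0.050, Psph at -0.0088, Mthfd1 at -0.055, Mthfd1l at -0.13 and Mthfd2 at -0.0027.

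Over 15 pairs of groups, same-numbered deviations correlated from -0.0657 to 0.125 (ISP control with DP control). Weak correlation cannot show that samples were unpaired. A replicate block changed no enzyme's call, with Mthfd1l in KO minus control in DP at an adjusted p of 0.0433 and 6 members called for the difference of genotype effects (limma). With 2 libraries per group, the printed intervals are not limits of detection, and true differences could go uncalled after adjustment. The cause of each change was not tested.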

Other observations

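From ISP to DP, genes of amino acid supply and transport were called in both directions. Slc7a11, the cystine transporter gene of the ATF4 response list, was at 10.8 RPKM in DP against 1.47 in ISP (log2 difference 2.26, limma adjusted p = 1.22e-09), while Asns, the asparagine synthetase gene of the same list, was at 11.6 against 69.6 (-2.50). Among the genes of serine transport and use, Serinc5 was at 61.1 RPKM in DP against 16.51 in ISP (1.83, limma adjusted p = 1.34e-09) and Serinc1 at 65.2 against 38.2 (0.76). Both encode membrane proteins of the serine incorporator family. Sfxn1, which carries serine into mitochondria, was at 28.2 against 76.7 RPKM (-1.42, limma adjusted p = 5.36e-10).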
